A study of Mus musculus with 6 samples.

Results

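A set of 10 genes of Toll-like receptor and NF-kB signaling was followed in the tibialis anterior (TA) muscle of old mice given the DUSP22 inhibitor BML-260. The 10 genes were taken by their symbols from the TPM tables and joined by gene identifier to the raw counts, in which 45777 genes are listed. They are the receptor genes Tlr4 and Tlr2, the IkB kinase genes Chuk and Ikbkb, the Rel and NF-kB subunit genes Rela, Relb, Nfkb1 and Nfkb2, and the inhibitor genes Nfkbia and Tnfaip3. All 10 were among the 16188 genes with enough counts to be tested, and all 10 had at least 54 raw counts in every library.

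RNA-Seq was carried out on 6 TA muscles, 1 library per mouse. All 6 mice were male C57BL/6J with a labelled age of 24 months, the labels name no allele beyond the strain, and no young mice are among these libraries. The vehicle group (n = 3) received 5% DMSO with 5% Tween 80, and the BML-260 group (n = 3) received BML-260 at 5 mg/kg, in both cases by intraperitoneal injection every 24 h for 4 weeks. The comparison asks how BML-260 changes transcripts in aged muscle, and the RNA is from whole muscle, so fewer cells of a type and less RNA per cell cannot be told apart in any value below.

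Toll-like receptors bind microbial products and products of damaged tissue at the cell surface or in endosomes. Through adaptor proteins they activate the IkB kinase complex, which marks the inhibitor IkB-alpha for degradation and so frees NF-kB dimers to enter the nucleus. NF-kB raises transcription of cytokines, chemokines and adhesion molecules, and also of its own inhibitors, so that Nfkbia and Tnfaip3 are classical feedback targets. In skeletal muscle the pathway is known for its part in wasting, and in the tissue Tlr4 and Tlr2 are made both by muscle cells and by resident macrophages.

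Promoter sequences of the members are shown because several members are themselves known targets of NF-kB, so their levels can be set beside the matches they carry. The 250 bases before the transcription start were read from RefSeq (mouse build GRCm38.p6), which had 9 promoters for 6 of the members (Tlr2, Chuk, Rela, Nfkb2, Nfkbia and Tnfaip3). They were searched on both strands for the kappaB consensus and for the letters GGANNTTCC, and the 2 motifs can overlap in the same bases. At least 1 match was found for 4 of the 6 members, Tlr2, Nfkb2, Nfkbia and Tnfaip3, and in 6 of the 9 promoters. Over all 32851 mouse promoters of that length, 3.90% held the kappaB consensus and 3.59% held GGANNTTCC. These shares are for each motif alone and per promoter. The counts of the members take a match to either motif, so they are not the same measure. The feedback inhibitors each carried more than 1 match within their first promoter, in capitals below, 5′ to 3′ on the minus strand at chr12:55492648-55492897 for Nfkbia and at chr10:19015411-19015660 for Tnfaip3.
Nfkbia: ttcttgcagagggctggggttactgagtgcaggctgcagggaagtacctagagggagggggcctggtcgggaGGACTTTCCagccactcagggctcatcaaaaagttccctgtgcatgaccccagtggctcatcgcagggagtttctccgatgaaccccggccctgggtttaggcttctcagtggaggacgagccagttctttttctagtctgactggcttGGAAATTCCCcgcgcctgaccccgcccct
Tnfaip3: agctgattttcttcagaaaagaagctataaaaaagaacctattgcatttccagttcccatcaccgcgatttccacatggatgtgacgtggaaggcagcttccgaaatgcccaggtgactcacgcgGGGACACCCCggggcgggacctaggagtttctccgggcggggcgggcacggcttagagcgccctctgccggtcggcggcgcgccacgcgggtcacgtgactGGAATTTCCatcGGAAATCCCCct
For Tlr2 (chr3:83841762-83841790, minus strand) and for the first promoter of Nfkb2 (chr19:46304689-46304717 and chr19:46304717-46304736, plus strand) the matches are shown with up to 9 bases on each side.
Tlr2: aggacacctGGGGAATTCCCacacggagc
Nfkb2 site 1: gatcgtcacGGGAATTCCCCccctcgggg
Nfkb2 site 2: gggccgaaaGGGGCTTTCCc
The Tlr2 match lay 173 to 163 bases before the start, and the matches of the first Nfkb2 promoter lay 39 to 29 and 11 to 2 bases before it. For Tlr2 and Nfkb2 these starts lie inside the annotated span of the gene, and so do the matches shown. Neither motif was found in these windows of Chuk and Rela. A match describes the letters only and does not show that a factor binds there.

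The libraries held between 39522890 and 56998875 counts. Muscle fiber transcripts such as Acta1, Ckm and Myh4 were abundant in all of them, with a summed TPM of 8 fiber markers between 104237 and 132871 (TPM is a transcript abundance scaled for transcript length and library total). Vehicle replicate 3 stood apart from the other libraries, with a TMM scaling factor of 1.20 against 0.914 to 1.02, and it was the highest of the 6 libraries for 31.8% of tested genes. In summed TPM its macrophage markers were 4.22-fold and its neutrophil markers 8.51-fold the mean of the other vehicle libraries. Those libraries themselves differed in the neutrophil sum, at 165 TPM in replicate 1 and 24.0 TPM in replicate 2. Its TPM values also ran higher than its counts, at 1.38 times the median of the 6 libraries per normalized count, against 0.902 to 1.02 in the others. Folds of this library in TPM are therefore larger than those in normalized counts. The main values below are also given without it.

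Among the 10 genes, 4 were past the threshold used for these libraries, defined as a difference of 1.3-fold or more and an unadjusted p below 0.05, namely Tlr4, Tlr2, Chuk and Nfkb2. All 4 were lower with BML-260. Over all tested genes 5.75% were past it, 4.86% as lower and 0.896% as higher. No gene of the 16188 had an adjusted p under 0.05 by the edgeR quasi-likelihood test (Benjamini-Hochberg adjustment), while 5.97% had an unadjusted p under 0.05, and DESeq2 gave 82 genes with an adjusted p under 0.05. No overlap between groups was seen for 2 members, Tlr4 and Tlr2, both lower with BML-260, against 12.2% of all tested genes in either direction and 6.75% in the lower direction. The fitted log2 fold change was below 0 for 8 of the 10 members, against 50.5% of all tested genes, and its median was -0.16 over the members and -0.004 over all genes. Without vehicle replicate 3, Tlr4 and Nfkb2 were past the threshold, 2.92% of all genes were past it in the lower direction, and the members' median was -0.11.

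**Figure D1:**
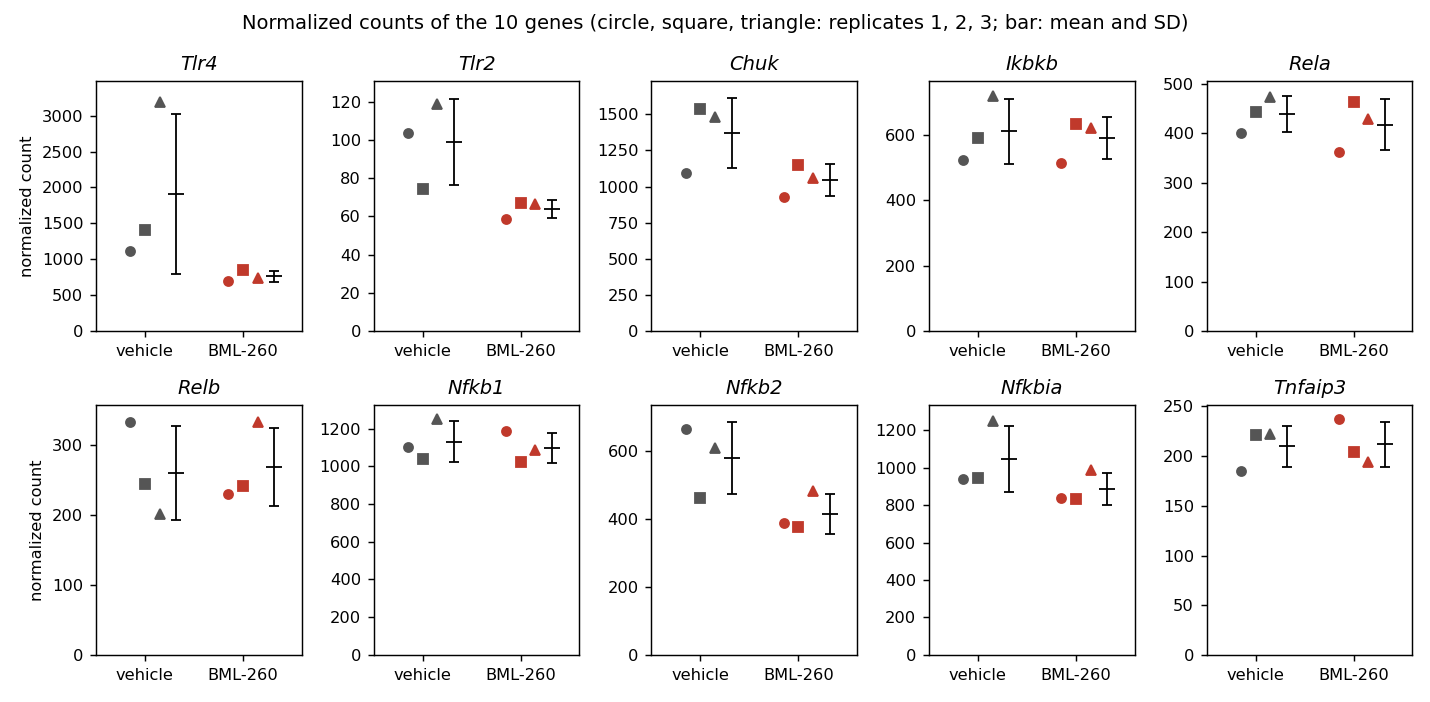
Normalized counts (raw counts divided by the library's size factor, linear axes from 0) of the 10 genes in 3 vehicle libraries (grey) and 3 BML-260 libraries (red), where symbols are replicates and the bar is the mean with its SD. Tlr4 and Tlr2 are the panels in which every BML-260 library lies below every vehicle library, and vehicle replicate 3 is far above the rest for Tlr4.

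Tlr4 (gene 21898, chr4:66827551-66846581), the receptor for bacterial lipopolysaccharide, differed most of the 10 genes. Its normalized counts were 1123, 1414 and 3190.1 in the vehicle libraries and 700.2, 853 and 743 in the BML-260 libraries. Vehicle replicate 3 was far above all others, the BML-260 libraries lay close together, and the groups did not overlap. The means were 1909 ± 1119 (SD, n = 3) and 765 ± 78.7 (SD, n = 3). On the log2 scale the fitted difference in counts was -1.32 with a standard error of 0.355, which is 2.50-fold lower with BML-260 (adjusted p = 0.649 by the edgeR quasi-likelihood test (Benjamini-Hochberg adjustment), unadjusted p = 0.00539). Without vehicle replicate 3 the difference shrank to -0.73, or 1.66-fold, while the unadjusted p was 0.000436 and the adjusted p 0.150 in the same edgeR test. By the DESeq2 Wald test over 25780 genes with at least 1 count, the adjusted p of Tlr4 was 0.0317. Over the 19 alternatives its adjusted p ranged from 0.0317 to 0.984.

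Tlr2 (gene 24088, chr3:83836272-83841824), which binds bacterial lipoproteins in pairs with Tlr1 or Tlr6, had low counts. Its normalized counts were 104, 74.1 and 118 with vehicle and 58.6, 66.8 and 66.3 with BML-260. The BML-260 libraries were again close together and below every vehicle library, although vehicle replicate 2 lay only a little above them. The log2 difference was -0.64 ± 0.273 (standard error), or 1.55-fold lower (adjusted p = 0.788 by edgeR's quasi-likelihood test, unadjusted p = 0.0470). The threshold was no longer met when any library other than vehicle replicate 2 was left out, and without vehicle replicate 3 the difference was -0.49.

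The kinase genes gave different values. Chuk (gene 12675, chr19:44073334-44107505) codes for IKK-alpha, the kinase that also drives processing of the Nfkb2 precursor. Normalized counts of Chuk were 1094, 1540.3 and 1480.3 with vehicle and 929, 1148 and 1063 with BML-260. Vehicle replicate 1 lay within the BML-260 range, so the groups overlapped. The log2 difference was -0.39 ± 0.170 (standard error), or 1.31-fold lower, close to the 1.3-fold threshold itself (adjusted p = 0.788 by edgeR's quasi-likelihood test, unadjusted p = 0.0479), and the threshold was met without vehicle replicate 1 but not without any other library. Ikbkb (gene 16150, chr8:22659205-22706589), which codes for IKK-beta, the kinase that acts on IkB-alpha, had normalized counts of 524, 590.1 and 718 with vehicle and 516, 633 and 622 with BML-260. The groups overlapped almost fully, and the log2 difference of -0.05 was below its standard error of 0.167.

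Among the subunit genes, Nfkb2 (gene 18034, chr19:46300994-46312400), whose product is processed to the DNA-binding partner of RelB, was past the threshold. Its normalized counts were 664, 459.8 and 609 with vehicle and 386, 375 and 480.0 with BML-260. BML-260 replicate 3 was higher than vehicle replicate 2, and the remaining libraries were separated. The log2 difference was -0.49 ± 0.187 (standard error), or 1.40-fold lower (adjusted p = 0.788 by edgeR's quasi-likelihood test, unadjusted p = 0.0307), and it was -0.45 without vehicle replicate 3, so this gene did not rest on that library. The threshold was not met without vehicle replicate 1, BML-260 replicate 1 or BML-260 replicate 2. The annotated span of Nfkb2 overlaps Psd and the lncRNA 4833438C02Rik, and the handling of strand in the counting is not stated, so its counts are uncertain to that extent. Psd had 0 to 5 raw counts per library and 4833438C02Rik 10 to 65.

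The other subunit genes did not differ beyond the spread between libraries. Rela (gene 19697, chr19:5637442-5648134), the transactivating subunit of the canonical dimer, had normalized counts of 401, 444 and 474 with vehicle and 362, 464 and 428 with BML-260. Nfkb1 (gene 18033, chr3:135584655-135691969), its usual partner, had 1105, 1038 and 1252 with vehicle and 1185, 1024 and 1085 with BML-260. For Relb (gene 19698, chr7:19606217-19629438), the subunit of the non-canonical dimer, they were 334, 244 and 202 with vehicle and 230.2, 242 and 333 with BML-260. The groups overlapped for all 3 genes, and the highest Relb libraries were vehicle replicate 1 and BML-260 replicate 3. Log2 differences with their standard errors were -0.08 ± 0.159 for Rela, -0.05 ± 0.138 for Nfkb1 and 0.04 ± 0.245 for Relb, and none kept its sign in every alternative. The span of Nfkb1 overlaps the lncRNA Gm46827, which had 0 to 4 raw counts.

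The feedback inhibitors did not pass the threshold. Nfkbia (gene 18035, chr12:55489409-55492647), which codes for IkB-alpha and carries the kappaB matches printed above, had normalized counts of 943, 945 and 1251 with vehicle and 839.9, 833 and 986 with BML-260. Vehicle replicate 3 was the highest library, and BML-260 replicate 3 exceeded the remaining vehicle libraries. The log2 difference was -0.24 ± 0.162 (standard error; adjusted p = 0.788 by edgeR's quasi-likelihood test) with all libraries and -0.10 without vehicle replicate 3. Tnfaip3 (gene 21929, chr10:19000910-19015410), which codes for a ubiquitin-editing enzyme that ends NF-kB signaling, had 186, 221 and 223 with vehicle and 237, 204 and 194 with BML-260. The groups overlapped, and the log2 difference was 0.01 ± 0.185 (standard error). Set beside the promoters, the 4 members with a kappaB match had differences of -0.64 (Tlr2), -0.49 (Nfkb2), -0.24 (Nfkbia) and 0.01 (Tnfaip3), so a match did not go with a common value. Chuk and Rela, with no match in the window, had -0.39 and -0.08.

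**Figure D2:**
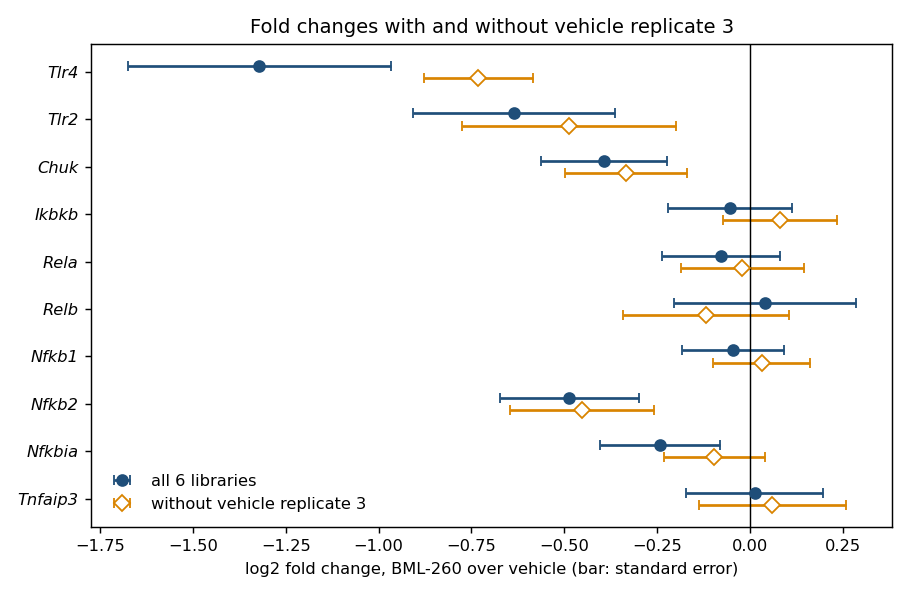
Fitted log2 fold change of counts for each of the 10 genes, BML-260 over vehicle, with its standard error as the bar, for all 6 libraries (filled circles) and without vehicle replicate 3 (open diamonds). Tlr4 moves from -1.32 to -0.73 when that library is left out, Nfkb2 stays at -0.49 and -0.45, and Ikbkb, Rela, Relb, Nfkb1 and Tnfaip3 lie within their standard error of 0 with all 6 libraries.

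Levels were compared between genes only as TPM. In the vehicle group the order by mean TPM was Nfkbia (26.7 ± 10.6), Chuk (15.5 ± 4.92), Nfkb1 (10.8 ± 3.39), Tlr4 (10.3 ± 8.30), Nfkb2 (6.87 ± 2.34), Rela (6.68 ± 1.79), Ikbkb (6.61 ± 2.48), Relb (4.41 ± 0.828), Tnfaip3 (1.88 ± 0.529) and Tlr2 (1.39 ± 0.591), each with its SD over 3 libraries. Of the neighbours in that order, Relb and Tnfaip3 were the pair whose ranges over the libraries did not overlap. Compared within each vehicle library, Nfkbia was also above Chuk, Chuk above Nfkb1 and Tnfaip3 above Tlr2 in all 3. In the BML-260 group Nfkbia was again first at 19.6 ± 2.71 and Tlr2 last at 0.763 ± 0.110 (SD, n = 3), and Tlr4 stood at 3.40 ± 0.537 below Nfkb2 at 4.09 ± 0.851. There Nfkbia was above Chuk, Nfkb1 above Ikbkb, Tlr4 above Tnfaip3 and Tnfaip3 above Tlr2 with no overlap, and the ranges of the other neighbours overlapped. Of these others, Ikbkb was above Rela and Rela above Relb within all 3 BML-260 libraries. In single libraries Tlr4 had 5.03, 6.01 and 19.9 TPM with vehicle and 2.86, 3.93 and 3.39 TPM with BML-260, so its vehicle mean lay far above replicates 1 and 2.

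The members also differed in how they varied. The coefficient of variation of normalized counts was larger in the vehicle group for 8 of 10 members, with a median of 17.3% against 10.6% with BML-260. The same held for 70.3% of all tested genes, at medians of 21.8% and 13.1%. The highest value among the members was that of Tlr4 in vehicle, at 58.6% against 10.3% with BML-260, while Rela, Relb, Nfkb1 and Tnfaip3 had values between 7.38% and 25.95% in either group. As a description over the 6 libraries, 3 of each group, in which genes of a library share its depth and treatment, log2 counts of Rela and Ikbkb had a Pearson r of 0.894 (0.889 without vehicle replicate 3) and those of Tlr2 and Nfkb2 had 0.903 (0.915). For Tlr4 and Nfkbia r was 0.868 with all libraries and 0.388 without vehicle replicate 3, and for Relb and Tnfaip3 it was -0.855 and -0.879. These are examples out of all pairs of members. For the partners Rela and Nfkb1, r was -0.189 with all libraries and -0.988 without vehicle replicate 3.

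Ratios within a library set members against each other and do not depend on its depth. Counts are not scaled for transcript length, so the size of a ratio does not show which gene is more abundant. Only the differences of a ratio between libraries are described here. These 3 ratios were chosen after the values were seen and are given as a description, without a p. Tlr4 per Rela was 2.80, 3.18 and 6.73 with vehicle and 1.93, 1.84 and 1.73 with BML-260 in normalized counts. Tlr4 per Nfkbia was 1.19, 1.496 and 2.55 with vehicle and 0.834, 1.02 and 0.753 with BML-260. In both, every BML-260 library lay below every vehicle library. Nfkb2 per Nfkb1 was 0.601, 0.443 and 0.486 with vehicle and 0.326, 0.366 and 0.442 with BML-260. There the nearest libraries of the groups, vehicle replicate 2 and BML-260 replicate 3, were almost equal.

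The rest of the pathway was followed in 71 further genes, of which 61 could be tested. These lists were chosen with earlier results of these data known. The smallest adjusted p among the 61 was 0.598 in edgeR's quasi-likelihood test. In the DESeq2 Wald test Il1b had an adjusted p of 0.00326 and Tlr7 one of 0.0896. Past the threshold were 19 genes, all lower with BML-260, against 4.86% of all tested genes in that direction. Without vehicle replicate 3 the count was 8, against 3.98% of all genes in either direction, and the median log2 difference moved from -0.49 to -0.21. Genes of low count can pass the filter through the vehicle libraries alone, and of the 51 genes with at least 10 counts in every library 17 were lower and none higher past the threshold. Of all 14427 genes with at least 10 counts in every library, 719 were past it as lower, and 5.94% were past it in either direction.

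**Figure D3:**
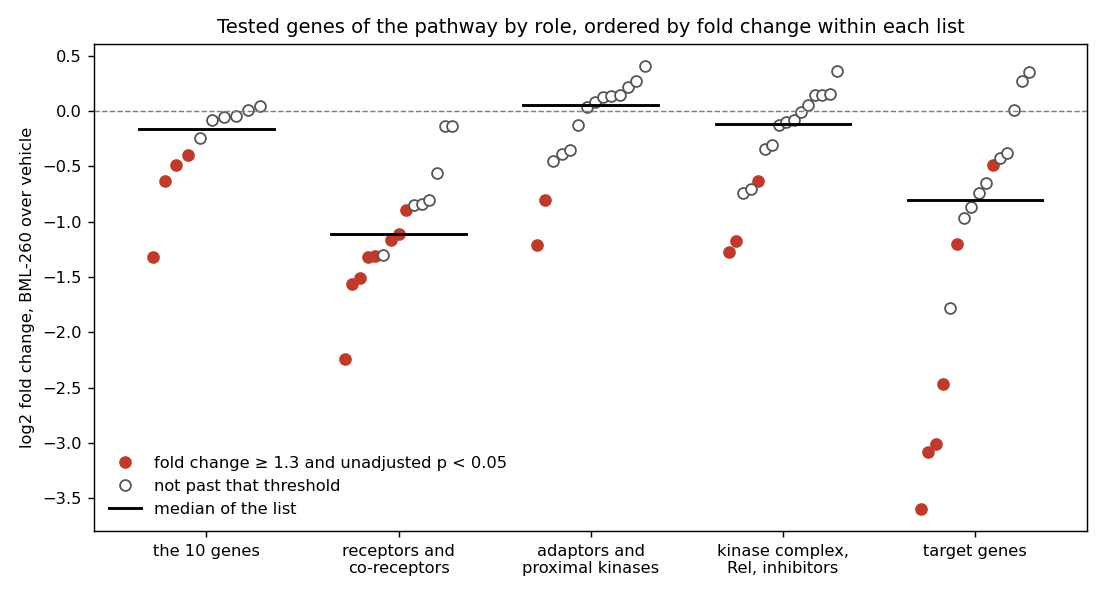
Fitted log2 fold change of counts, BML-260 over vehicle, for the tested genes of each role (y axis), ordered by value within each list, with filled points past the threshold and a black line at the list's median. The receptor list is centered at -1.11 and the target list at -0.81 (-0.46 over the genes with at least 10 counts in every library), the adaptor list at 0.06, and no point above 0 is filled.

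Receptors and co-receptors were lower in 15 of 15 tested genes, with a median log2 difference of -1.11, and 8 passed the threshold (4 without vehicle replicate 3, at a median of -0.57). Of the 11 with at least 10 counts in every library, which leaves out Tlr1, 8 passed, at a median of -1.16. With the members, 10 Toll-like receptor genes were tested and 6 passed, all as lower (3 without vehicle replicate 3). Over all tested genes 4.86% passed as lower, and 2.92% did without vehicle replicate 3. Tlr7, an endosomal receptor for RNA, had normalized counts of 73.3, 134 and 188 with vehicle and 34.5, 61.8 and 38.1 with BML-260 and did not overlap between groups. Log2 differences were -1.56 for Tlr7, -1.32 for Tlr8, which also senses RNA, -1.16 for Tlr5, the flagellin receptor, and -2.24 for Tlr1. Without vehicle replicate 3 they were -1.20 for Tlr7, -0.57 for Tlr8, -1.32 for Tlr5 and -2.02 for Tlr1. Tlr1 overlapped between groups and had a mean of 5.64 ± 6.62 normalized counts (SD, n = 3) with BML-260. Among the helpers of the receptors, Ly86 had -1.31 and Unc93b1, which carries endosomal receptors to their place, -0.90, and neither had overlapping groups. Lbp, which transfers lipopolysaccharide, had -1.11 and its acceptor Cd14 -1.51, and these became -0.42 and -0.49 without vehicle replicate 3. Of the receptor-list genes of highest TPM that were not past the threshold, the Tlr4 partner Ly96 had -0.85, Tlr3 -0.13 and the chaperone Hsp90b1 -0.13. Tlr5, Tlr7, Ly86 and Unc93b1 were the 4 still past it without vehicle replicate 3.

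Adaptors and proximal kinases had 6 lower and 8 higher of 14 tested genes, with a median of 0.06. The 2 past the threshold were Ticam2, the adaptor that links Tlr4 to its endosomal route, at -1.21, and Irak3, an inhibitor of receptor signaling, at -0.80, and neither passed without vehicle replicate 3, where they had -0.80 and -0.30. The most abundant others, the kinase Map3k7 and its partner Tab2 and the inhibitor Tollip, had differences of 0.21, 0.41 and 0.08 and did not pass. In the remaining kinase complex, Rel and inhibitor genes, 3 of 16 passed, at a median of -0.12. They were the nuclear IkB family genes Nfkbiz at -1.17 and Bcl3 at -1.28, and Tnip2, a partner of the Tnfaip3 product, at -0.64, and none of the 3 passed without vehicle replicate 3, where they had -0.30, -0.83 and -0.41. Nfkbib (0.05), Cyld (-0.10) and Otulin (-0.70) were the most abundant that did not pass, and Otulin had 0.04 without vehicle replicate 3.

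Target genes were lower in 13 of 16 tested and 6 passed, at a median of -0.81 (-0.62 without vehicle replicate 3). Of the 10 target genes with at least 10 counts in every library 4 passed, at a median of -0.46, and Cxcl10 and Ccl2, with 0 to 11 raw counts in the BML-260 libraries, were not among them. Il1b, the cytokine interleukin-1 beta, had normalized counts of 114, 33.2 and 279 with vehicle and 13.8, 18.0 and 22.1 with BML-260. The groups did not overlap, and the log2 difference was -3.004 (-2.07 without vehicle replicate 3). The adhesion genes Icam1 and Vcam1 had differences of -1.20 and -0.49 (-0.74 and -0.52 without vehicle replicate 3). The chemokine gene Cxcl10 had -2.46 (-1.83 without vehicle replicate 3). None of these 3 overlapped between groups, and these 3 and Il1b were the 4 that passed without vehicle replicate 3. Vcam1 differed from the others in having its lowest vehicle value in replicate 3, at 323 normalized counts against 357 and 336. Lcn2, a secreted protein of neutrophil granules, had -3.60 and the chemokine gene Ccl2 -3.08, and these became -0.99 and -0.77 without vehicle replicate 3. The most abundant targets that did not pass were the mitochondrial dismutase gene Sod2 at 0.36, and the apoptosis inhibitor genes Birc2 at 0.01 and Birc3 at -0.38. Sele, Il6, Tnf, Ccl20, Cxcl1, Cxcl2, Saa3 and Il1rn had too few counts to be tested.

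Markers of the cell types in the muscle were set beside these values, and the lists differed. Of 11 macrophage markers, 9 were lower past the threshold, against 4.86% of all tested genes. The summed TPM of the 11 ranged from 144 to 609 with vehicle and from 87.4 to 109 with BML-260. Without vehicle replicate 3, 8 macrophage markers passed, against 2.92% of all genes as lower. Their median log2 difference moved from -1.36 to -0.61. All 6 tested neutrophil markers were lower past the threshold (5 without vehicle replicate 3). Their sums were 24.0 to 806 TPM with vehicle and 6.95 to 12.2 with BML-260 (5 markers in the TPM tables). All 7 listed neutrophil markers together had 2650, 324 and 11249 raw counts with vehicle and 159, 116 and 198 with BML-260. A marker of low count can pass the filter through the vehicle libraries alone, and then its call can hardly be other than lower. The markers were not counted again among genes with at least 10 counts in every library. Cd68 and Mertk were the macrophage markers not past the threshold, with log2 differences of 0.002 and -0.21. None of 7 endothelial markers passed, at 79.1 to 106 TPM with vehicle and 74.1 to 92.9 with BML-260, and none of 8 muscle fiber markers did. Of 6 fibroblast markers 1 passed (Col1a1), at 313 to 814 TPM with vehicle and 337 to 559 with BML-260. The 7 lymphocyte markers were not tested and together had 14 to 66 raw counts per library. The part of these cells in the result was not tested.

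Tlr4 was set against those sums in each library. Its TPM was 3.49%, 4.16% and 3.26% of the macrophage marker sum with vehicle and 2.86%, 4.50% and 3.10% with BML-260, and the groups overlapped. The means were 3.64% ± 0.466 and 3.49% ± 0.885 (SD, n = 3; exact permutation test, two-sided, p = 0.700, adjusted p = 0.700 over 3 ratios). Tlr2 per macrophage marker TPM was 0.879%, 0.599% and 0.333% with vehicle and 0.638%, 0.963% and 0.741% with BML-260 (exact permutation test, p = 0.400, adjusted p = 0.600). Against the endothelial markers Tlr4 was 6.37%, 6.99% and 18.7% with vehicle and 3.86%, 5.12% and 3.65% with BML-260. These groups did not overlap (exact permutation test, p = 0.1, adjusted p = 0.300), and 0.1 is the smallest p that 3 libraries against 3 allow. The difference in the Tlr4 ratio to the macrophage markers changed sign in 3 of 8 alternatives. With 3 libraries a group, the overlap does not show that Tlr4 follows these markers. The part of macrophages in the Tlr4 difference was not tested.

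**Figure D4:**
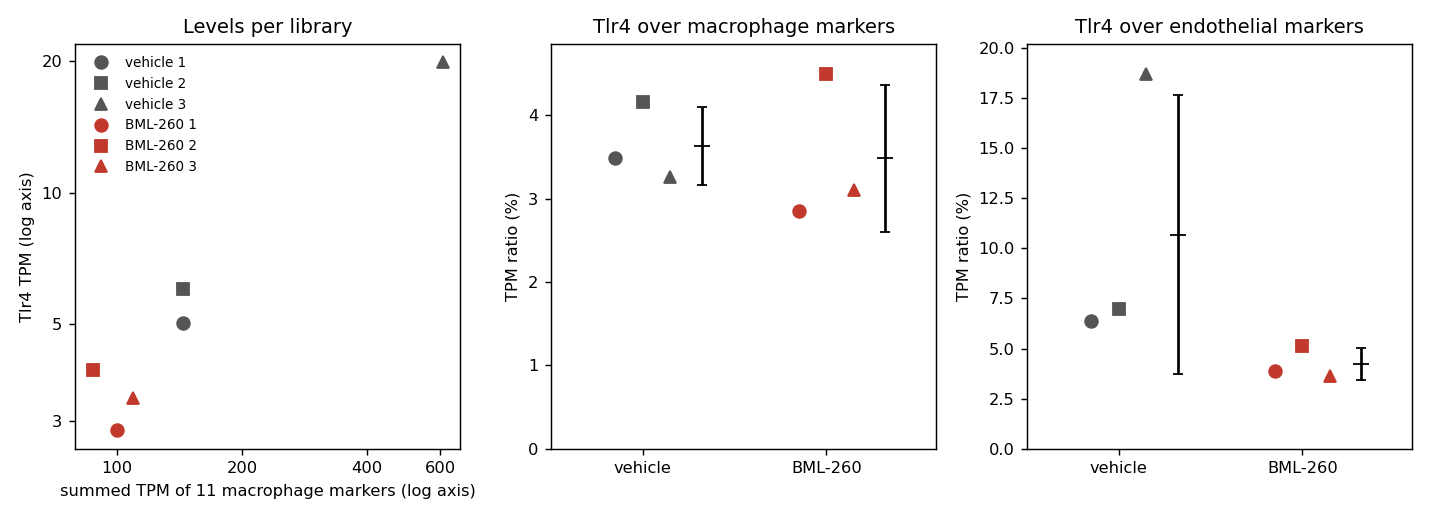
Left, Tlr4 TPM against the summed TPM of 11 macrophage markers in each library (both axes logarithmic); middle and right, Tlr4 TPM as a percentage of the macrophage and of the endothelial marker sum, with symbols for replicates and bars for the mean and SD. The macrophage ratio lies between 2.86% and 4.50% in all 6 libraries with the groups mixed, while the endothelial ratio is higher in every vehicle library.

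The genes with the pattern most like that of Tlr4 over the 6 libraries, by Pearson r of log2 normalized counts, were Eif4a1 (0.999), Atp8b1 (0.997), App (0.997), Mmp14 (0.995) and B4galt6 (0.995). Those nearest to Nfkbia were Sft2d3 (0.998), Dock1 (0.996), Cttn (0.995), 5031426D15Rik (0.994) and 5930403L14Rik (0.994). With so few libraries many genes come close, and 228 genes had an r above 0.95 with Tlr4 and 167 with Nfkbia.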

How the data were processed

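The authors sequenced total RNA (TruSeq Stranded Total RNA Gold kit) from 6 TA muscles and, per the labels' processing notes, used StringTie 2.1.3b, Bowtie2 2.3.4.1, Trimmomatic 0.38 and HISAT2 2.1.0 with the build mm10. The authors deposited a table of raw, unnormalized gene counts covering the 6 libraries, and TPM per library, already scaled for transcript length and library total. How strand and multi-mapped reads were handled is not given in the sources used here. The methods give ages of 24 to 26 months and the results text 27 months.

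Groups came from the titles. In R 4.3.3, edgeR 4.0.16 kept 16188 genes by filterByExpr, scaled libraries by TMM, fitted the 2 groups and tested them by the quasi-likelihood F-test with Benjamini-Hochberg adjustment over all tested genes. Normalized counts are counts over the DESeq2 size factor of the library, estimated on the tested genes. The standard error is the log2 fold change divided by the square root of F. Each library is 1 mouse. Ratios of TPM were tested by exact permutation over the assignments of 6 libraries to 2 groups, which cannot give p under 0.1. The tests on counts were tried on simulated data. The simulated libraries held no outlier like vehicle replicate 3, so they do not cover that feature of these data.

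The members and lists were chosen with earlier results of these data known. Named are the 10 members, every pathway gene past the threshold (fold change of at least 1.3, unadjusted p under 0.05), the 3 others of highest mean TPM in each list, the marker genes, and the 5 genes nearest in pattern to Tlr4 and to Nfkbia. Gene names, coordinates and promoters are from RefSeq GRCm38.p6, the same primary build as mm10. Alternatives were other normalizations and filters, DESeq2 1.42.0 with and without apeglm 1.24.0, limma 3.58.1 (voom with quality weights, and log2 TPM with pseudocounts of 1 and 0.1), robust quasi-likelihood, a replicate block, and leaving out each library. DESeq2 and apeglm on the genes kept by filterByExpr were added after seeing the data.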

Additional observations from a re-analysis of the deposited data

How the results depend on the processing

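Tlr4 was lower with BML-260 in all 19 alternatives and past the threshold in 18. Its log2 difference was -1.11 when shrunken by apeglm over 25780 genes with a count but -0.003 when shrunken over the 16188 genes kept by filterByExpr, so its shrunken size depends on which genes set the prior. Nfkb2 stayed past the threshold in 13 alternatives, Chuk in 7 and Tlr2 in 6, all lower in every alternative, and Nfkbia was lower and not past it in 19. The number of members past the threshold was 4 of 10. It was 2 by DESeq2, over all genes and over the filtered genes, 1 and 0 by apeglm over the same gene sets, 1 and 2 on log2 TPM with pseudocounts of 1 and 0.1, and 1 to 3 when a library was left out. The number of pathway genes, 19, became 1 and 3 with apeglm over all and over filtered genes, 10 with voom and quality weights, 7 and 9 on log2 TPM with pseudocounts of 1 and 0.1, and 8 to 23 without 1 library. Over all genes 931 passed, against 1416 with no filter, 99 and 113 with apeglm, 503 on log2 TPM with a pseudocount of 1, and 503 to 2223 without 1 library (2223 without vehicle replicate 1, 503 without BML-260 replicate 2). An adjusted p under 0.05 was reached by 0 genes, by 1 with no filter, with at least 10 counts in every library, with voom or with robust fitting, by 82 with DESeq2 or apeglm, by 95 on the filtered genes, and by 0 to 9 without 1 library.

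Small differences changed sign, none of them past the threshold. With voom, Ikbkb had 0.000708, Nfkb1 0.0294 and Relb -0.0672. On log2 TPM with pseudocounts of 1 and 0.1, Relb had -0.0713 and -0.0878 and Tnfaip3 -0.10 and -0.14, where the median of all genes was itself shifted to -0.10 and -0.14. Tnfaip3 had -0.00788 with upper quartile scaling and -1.22e-06 with apeglm on the filtered genes. Leaving out 1 library gave Ikbkb -0.15 to 0.0805, Rela -0.15 to 0.0175, Relb -0.14 to 0.27, Nfkb1 -0.10 to 0.0315 and Tnfaip3 -0.0765 to 0.0724. The difference in Tlr4 per macrophage marker TPM, -0.149 percentage points, ranged from -0.655 to 0.166. The share of calls that were lower, 84.4%, was 71.3% with voom, 69.2% with the replicate block, 62.4% without vehicle replicate 1 and 73.4% without vehicle replicate 3. The cause was not tested.

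Deviations of same-numbered libraries correlated at 0.137, 0.0515 and 0.101, so the numbers were not taken to pair the mice, although each library correlated best with its own number. With the replicate number as a block, 1057 genes, 3 members and 15 pathway genes were past the threshold, and Tlr4 had a log2 difference of -1.17. With 3 mice a group, the spread is estimated from few libraries, and Tlr2, at 54 to 159 raw counts, has the widest counting error of the members.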
